A study of Mus musculus with 11 samples.

Results

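The genes described here are 45 genes of DNA repair and the DNA damage checkpoint, taken by symbol from a table of read counts for 53700 mouse genes. They were listed from textbook pathways: 6 checkpoint genes, 13 of homologous recombination, 5 of end joining, 7 of base excision and single-strand break repair, 3 of mismatch repair, 7 of nucleotide excision repair, 3 of the Fanconi pathway and 1 of direct reversal. All 45 had a row in the table, and all 45 were among the 16639 genes that passed the filter on low counts and were tested.

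DNA damage is read by the kinases ATM, at double-strand breaks, and ATR, at stretches of single-stranded DNA, which act through CHEK2 and CHEK1 to hold the cell cycle while repair proceeds. Double-strand breaks are rejoined by end joining at any stage of the cycle, or copied from the sister chromatid by homologous recombination in cells that have replicated their DNA, so many recombination and Fanconi genes are transcribed with the replication genes. Cytarabine is built into new DNA and stalls replication, and doxorubicin traps topoisomerase II on broken DNA, so both drugs engage these pathways, while quizartinib inhibits the FLT3 kinase.

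The libraries come from sorted mouse bone marrow cells labelled ST-HSC (short-term haematopoietic stem cells). Hosts labelled CXCL12 WT (Cre_neg) or CXCL12 KO (Cre_pos) had received AML bone marrow that carried Flt3-ITD and was TET2 KO, and were then given vehicle or the combination of cytarabine, doxorubicin and quizartinib. The 4 groups are WT vehicle (3 libraries, 240, 253 and 265), KO vehicle (2 libraries, 249 and 275), WT treated (3 libraries, 252, 262 and 266) and KO treated (3 libraries, 257, 263 and 276), and values below follow these orders. Every group thus carries the same leukaemia, and WT and KO name the host's CXCL12 genotype, that of the niche, and not a genotype of the sorted cells. The labels give the strain C57BL/6j but no age, no driver of the Cre, no dose or time of the drugs, and no word on whether each library is a separate animal, so the p-values reflect how these libraries spread and no more.

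Depth ran from 8.13 to 31.1 M gene counts, and each of the treated libraries was deeper than each of the vehicle libraries. WT vehicle 253 and 265 stood apart, with 13589 and 14206 genes detected against 17207 to 22121 in the other 9. Of the stem and progenitor markers, Kit read 20.5 to 243 CPM (counts per M gene counts, with TMM scaling of the libraries). Cd34 read 111 to 497 CPM and Slamf1 at most 4.16 CPM. Flt3 read 68.5 to 340 CPM and Cd48 read 184 to 900 CPM. The 14 granulocyte markers summed to 11242 to 167151 CPM, so their transcripts were abundant in libraries labelled ST-HSC. How far the sorted cells met that label was not tested. Kit differed within KO treated, at 20.5, 243 and 210 CPM, and read 50.7, 37.7 and 20.5 CPM in WT treated. Cxcl12 itself, made by niche cells, read 0 to 14.4 CPM over the 11 libraries, so the sorted cells give no check of the host genotype. Red-cell markers separated the niches in treated hosts: 16 of them summed to 22624 to 109778 CPM in KO treated and 273 to 661 CPM in WT treated. In vehicle hosts they summed to 382 and 17759 CPM in KO vehicle and 64.3 to 1141 CPM in WT vehicle. There only KO vehicle 275 lay above the WT range, and 249 lay within it. In bulk RNA, fewer cells of a type and less RNA per cell cannot be told apart. Globin itself took 2.84% to 10.5% of the gene counts in KO treated libraries.

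The repair genes were covered by a median of 169 to 889 counts per gene in a library. Ogg1 and Ercc5 had 0 counts in WT vehicle 253, which allows up to 0.175 CPM, and Lig4 had 0 in WT vehicle 265, which allows up to 0.369 CPM (3 counts, counting error only). Together the 45 genes took 1224 to 2514 counts per M gene counts in a library. Per kilobase of transcript, the histone variant H2afx had the highest mean level over the 11 libraries, at 184 CPM per kb. It was followed by Parp1 at 40.1, Parp2 at 33.5, Xrcc6 at 29.9 and Xpc at 29.5 CPM per kb, and the lowest were Ercc2 at 0.891 and Lig4 at 0.386 CPM per kb. Exons of 19 of the 45 genes overlap a gene on the other strand in a GENCODE annotation. The overlap is 665 bases for Fanci and Polg, 1826 bases for Lig3 and Rffl and 2130 bases for Trp53bp1 and Tubgcp4. The kits named do not mark strand, so reads in such stretches cannot be assigned to either gene.

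**Figure D1:**
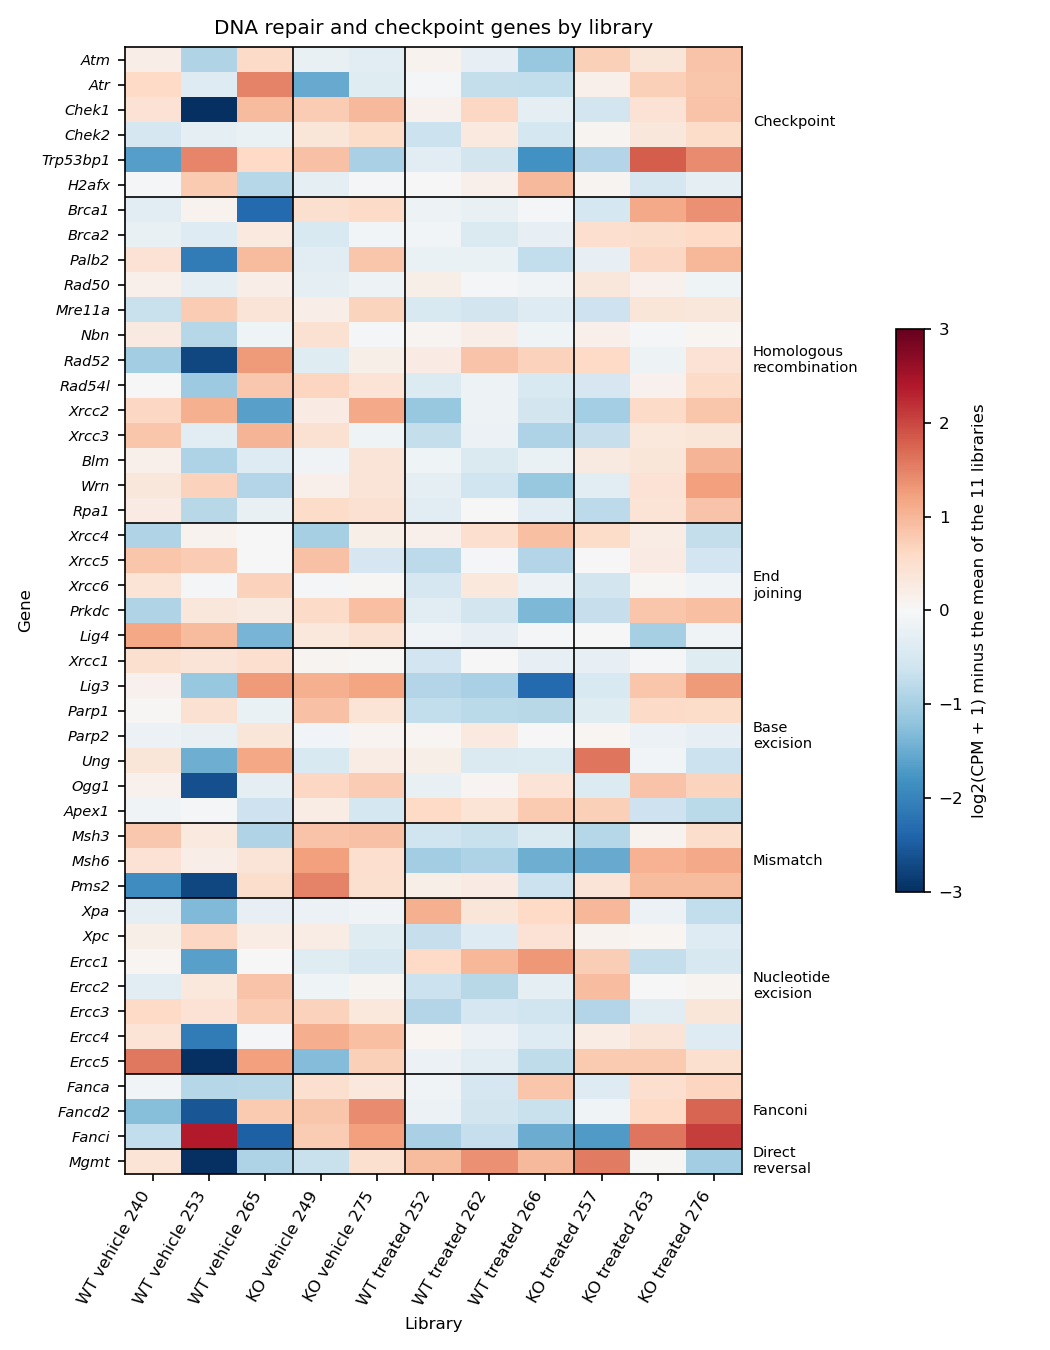
Level of each of the 45 genes (rows, by pathway) in each library (columns, by group), as log2(CPM + 1) minus the gene's mean over the 11 libraries, with colours cut at 3. KO treated 263 and 276 are mostly red, WT treated are mostly blue, KO treated 257 is mixed, and WT vehicle 253 holds the deepest blue cells.

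Many replication-linked genes carry binding sites for E2F factors near their start sites, so the 250 bases before the RefSeq start site were searched for the E2F letters TTTGGCGC, TTTCCCGC, TTTCGCGC and TTTGCCGC on both strands. A window was present for 36 of the 45 genes, on build GRCm38.p6, which is not the build of the counts (GRCm39). The letters were in 4 of 36 windows (11.1%), those of Chek2, Brca2, Xrcc6 and Msh3, and in 583 of 27025 windows of all genes (2.16%). Repair genes listed as peaking in S phase had them in 1 of 9 windows (11.1%) and the other repair genes in 3 of 27 (11.1%). The share was thus no higher in the S phase genes. The overlapping Msh3 matches count once. A match is a description of the letters and not of binding. The windows of 4 genes that the results below turn on are printed 5′ to 3′ on the gene's strand, with a match in capitals. Brca2 separated KO treated from all other libraries, Parp1 and Msh6 passed the test when 1 library was left out, and Xrcc6, the most abundant end joining gene per kb, showed neither. Their positions are chr5:150522371-150522620 (plus strand) for Brca2, chr15:82016119-82016368 (plus) for Xrcc6, chr1:180568641-180568890 (plus) for Parp1 and chr17:87974800-87975049 (plus) for Msh6. The match begins 168 bases before the start site in Brca2 and 46 bases before it in Xrcc6.
Brca2: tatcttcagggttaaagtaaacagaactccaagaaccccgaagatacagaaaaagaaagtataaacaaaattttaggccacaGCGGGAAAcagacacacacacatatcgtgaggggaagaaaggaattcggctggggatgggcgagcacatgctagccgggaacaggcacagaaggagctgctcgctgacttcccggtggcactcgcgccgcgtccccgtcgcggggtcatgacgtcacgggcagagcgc
Xrcc6: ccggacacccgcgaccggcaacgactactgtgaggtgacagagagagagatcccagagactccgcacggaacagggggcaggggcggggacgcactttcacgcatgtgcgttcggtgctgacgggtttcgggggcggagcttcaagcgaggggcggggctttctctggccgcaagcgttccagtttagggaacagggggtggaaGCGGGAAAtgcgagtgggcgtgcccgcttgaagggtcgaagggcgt
Parp1: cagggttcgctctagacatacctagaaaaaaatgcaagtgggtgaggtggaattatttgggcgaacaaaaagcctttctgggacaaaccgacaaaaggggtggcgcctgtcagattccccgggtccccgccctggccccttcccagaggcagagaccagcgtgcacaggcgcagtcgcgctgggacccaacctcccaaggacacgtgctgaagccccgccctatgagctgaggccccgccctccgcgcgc
Msh6: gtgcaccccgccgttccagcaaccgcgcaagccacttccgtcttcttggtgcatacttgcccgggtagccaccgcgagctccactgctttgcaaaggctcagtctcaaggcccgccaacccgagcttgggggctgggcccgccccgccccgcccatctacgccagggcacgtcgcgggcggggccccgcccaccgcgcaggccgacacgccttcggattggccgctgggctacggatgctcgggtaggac

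The first comparison asks whether the host's CXCL12 genotype goes with the repair genes' levels in leukaemic marrow after chemotherapy. In treated hosts, 34 of the 45 genes (75.6%) were higher with the KO niche and 11 lower, with a median log2 fold change of 0.57, against 53.9% higher and a median of 0.10 over all genes tested. None of the 45 passed an adjusted p of 0.05 in edgeR's quasi-likelihood test (0% of all genes were called), and the smallest adjusted p was 0.383, for Parp1. On simulated counts for this comparison, edgeR recovered 14% of planted 4-fold changes and 50% of planted 16-fold ones. A count of 0 called therefore does not show equal levels. At an unadjusted p under 0.05 there were 6 of 45 (13.3%), all higher with the KO niche: Brca2, Wrn, Prkdc, Lig3, Parp1 and Msh6. The background for that rule was 10.6% of all genes in either direction and 7.13% higher. The 3 KO libraries lay above the 3 WT libraries without overlap for 10 genes (22.2%, with 9.71% of all genes), namely Atm, Atr, Brca2, Blm, Lig3, Parp1, Pms2, Ercc2, Ercc5 and Fancd2, and lay below them for 0 (9.56% of all genes). With upper-quartile scaling the split was 29 higher and 16 lower. The fold changes ran from -1.02 (Ercc1) to 2.71 (Fanci).

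**Figure D2:**
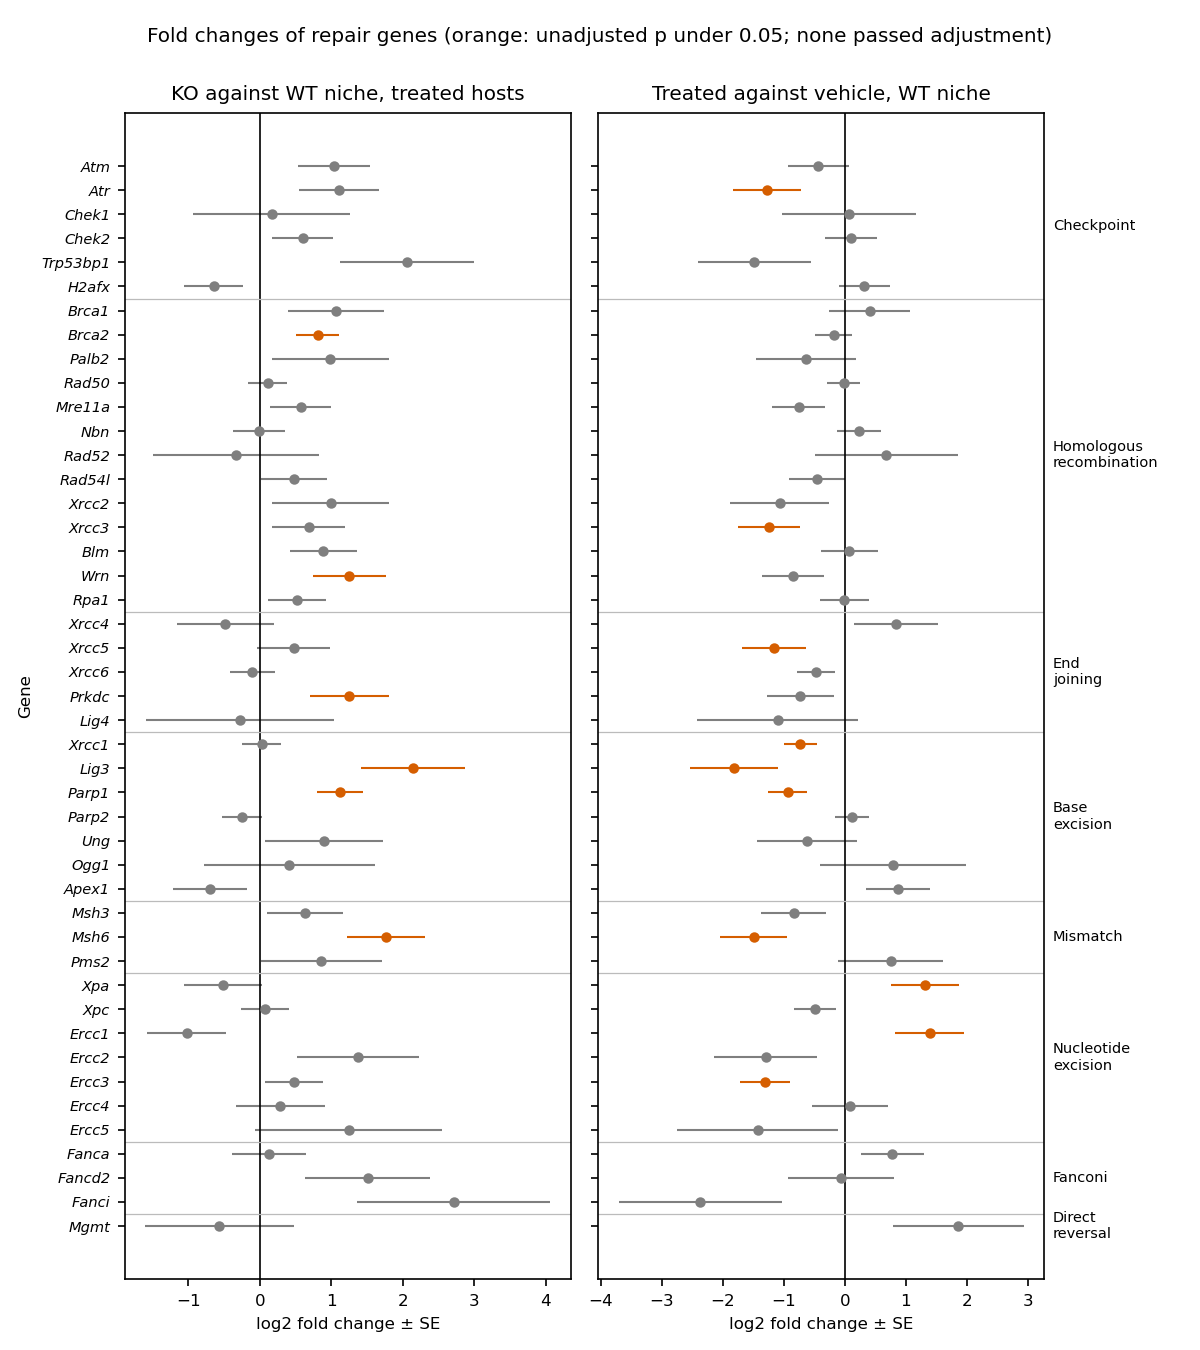
Log2 fold change with its standard error (edgeR) for the 45 genes by pathway, for KO against WT niche in treated hosts (left) and treated against vehicle in the WT niche (right). On the left 34 points lie right of 0, and on the right 28 points lie left of 0; the WT treated libraries enter both panels with opposite sign.

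Among the checkpoint genes, 5 of 6 were higher after treatment where the niche was KO, with a median log2 fold change of 0.82. Atm read 20.8, 16 and 8.21 CPM in WT treated and 32.1, 24.7 and 35.4 CPM in KO treated, a log2 fold change of 1.03 ± 0.50 (SE; edgeR adjusted p = 0.498). Atr read 17.6, 10.7 and 10.5 CPM in WT treated and 20.5, 30.4 and 33.0 CPM in KO treated, a log2 fold change of 1.11 ± 0.56 (edgeR adjusted p = 0.509). For both kinases the lowest KO library lay above the highest WT one. Chek1, the kinase downstream of ATR, read 21.5, 30.8 and 16 CPM in WT treated and 13, 26.9 and 36.6 CPM in KO treated, so the groups overlapped. Trp53bp1, which steers breaks toward end joining, had the largest value of the 6 at 2.06 ± 0.94 (edgeR adjusted p = 0.471). KO treated 263 and 276 read 49.7 and 37.2 CPM while 257 read 6.80 CPM, and WT treated read 10.5, 8.83 and 3.10 CPM. In vehicle hosts Trp53bp1 also varied within groups, at 3.55, 38.7 and 20.8 CPM in WT vehicle and 25.4 and 6.26 CPM in KO vehicle. H2afx, whose phosphorylated protein marks breaks, was the 1 lower gene: it read 237, 266 and 466 CPM in WT treated and 251, 169 and 199 CPM in KO treated, with overlap.

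Of the homologous recombination genes, 11 of 13 had more RNA in KO treated than in WT treated, with a median of 0.68. Brca2, a tumour suppressor gene that acts in the repair of double-strand breaks, read 39.0, 30.4 and 35.2 CPM in WT treated and 59.7, 60.5 and 63.3 CPM in KO treated. The KO treated libraries were close together and above every other library, the next being WT vehicle 265 at 51.2 CPM, and the log2 fold change was 0.81 ± 0.31 (edgeR adjusted p = 0.434). Brca1, a partner of BRCA2 and PALB2 at resected breaks, read 14.5, 13.8 and 15.5 CPM in WT treated and 10.9, 36.8 and 43.6 CPM in KO treated. Here KO treated 257 lay below all 3 WT treated libraries while 263 and 276 lay above them. Rpa1, the large subunit of the single-strand binding complex RPA and the most abundant of these genes per kb, read 92.1, 119 and 93.1 CPM in WT treated and 67.7, 157 and 212 CPM in KO treated, with the same order. Its log2 fold change of 0.52 ± 0.41 became -0.18 with the length trend removed. The helicase genes Blm and Wrn had log2 fold changes of 0.89 ± 0.47 and 1.25 ± 0.51 (edgeR adjusted p = 0.534 and 0.442). Nbn and Rad52 were the 2 lower genes, at -0.02 and -0.33.

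End joining genes did not share a direction: 2 of 5 were higher and the median was -0.11 (0.05 with 3 of 5 higher without KO treated 257). Prkdc, the catalytic subunit of the DNA-dependent protein kinase, read 15, 13 and 7.07 CPM in WT treated and 11.6, 35.2 and 36.8 CPM in KO treated, a log2 fold change of 1.25 ± 0.55 (edgeR adjusted p = 0.462). KO treated 257 again sat among the WT treated libraries. Xrcc6, which encodes the KU70 subunit of the ring that binds broken ends, read 67.3, 119 and 84.1 CPM in WT treated and 64.6, 98 and 88.1 CPM in KO treated, and the groups overlapped throughout. Xrcc5, its KU80 partner, had a log2 fold change of 0.47 ± 0.52, and the ligase gene Lig4 had -0.28 ± 1.31 at no more than 1.65 CPM in these 6 libraries.

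In base excision and single-strand break repair, 5 of 7 genes were higher in KO treated than in WT treated (median 0.42, and 0.04 with 4 of 7 higher without KO treated 257). Parp1, a sensor of strand breaks that marks them with poly(ADP-ribose), read 85.1, 81.1 and 80.4 CPM in WT treated and 111, 216 and 211 CPM in KO treated. The groups did not overlap and the WT treated values lay close together, for a log2 fold change of 1.12 ± 0.32 (edgeR adjusted p = 0.383). Lig3, the ligase of this pathway, had a log2 fold change of 2.15 ± 0.72 (edgeR adjusted p = 0.421), from 6.22 CPM ± 3.30 (SD, n = 3) in WT treated to 27.6 CPM ± 15 (SD, n = 3) in KO treated. Its scaffold partner Xrcc1 differed by 0.03 ± 0.27, and Parp2, the second enzyme of the PARP1 kind, by -0.25 ± 0.28. Apex1, the endonuclease that cuts at abasic sites, was at -0.70 ± 0.52.

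All 3 mismatch repair genes were higher in KO treated than in WT treated (median 0.86). Msh6, whose protein recognises mismatched bases, read 31.4, 33.8 and 23.2 CPM in WT treated and 22.2, 136 and 144 CPM in KO treated. KO treated 263 and 276 were thus far above every WT treated library, while 257 was below all of them; the log2 fold change was 1.77 ± 0.55 (edgeR adjusted p = 0.405). Pms2 had 0.86 ± 0.85 and Msh3 had 0.64 ± 0.53. Nucleotide excision repair, which removes bulky adducts, had 5 of 7 genes higher (median 0.29), a direction that turned when the length trend described below was removed. Its damage sensor Xpc read 64.2, 78.9 and 139 CPM in WT treated and 111, 107 and 78.9 CPM in KO treated, with overlap. Ercc3, a helicase of the transcription factor TFIIH, read 12.3, 16.1 and 15 CPM in WT treated and 12.2, 18.3 and 30.2 CPM in KO treated, also with overlap. Ercc1, the partner of the XPF nuclease, was the lowest of all 45 at -1.02 ± 0.55 (edgeR adjusted p = 0.548).

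The 3 Fanconi genes, which act on DNA crosslinks, were all higher (median 1.51), with a wide spread. Fanci read 2.78, 3.66 and 1.65 CPM in WT treated and 1.29, 21.6 and 30.3 CPM in KO treated, a log2 fold change of 2.71 ± 1.36 (edgeR adjusted p = 0.509). Fanca, a subunit of the core ubiquitin ligase complex, read 15.9, 11.8 and 31.7 CPM in WT treated and 12.9, 24.7 and 27.4 CPM in KO treated. Both pairs of groups overlapped, for Fanci because of KO treated 257 alone. Mgmt, which lifts alkyl groups off guanine in a single step, read 20.2, 27.5 and 20.4 CPM in WT treated and 31.4, 10.3 and 4.37 CPM in KO treated, with 257 highest of the 6 and the other KO libraries lowest (log2 fold change -0.57 ± 1.04).

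**Figure D3:**
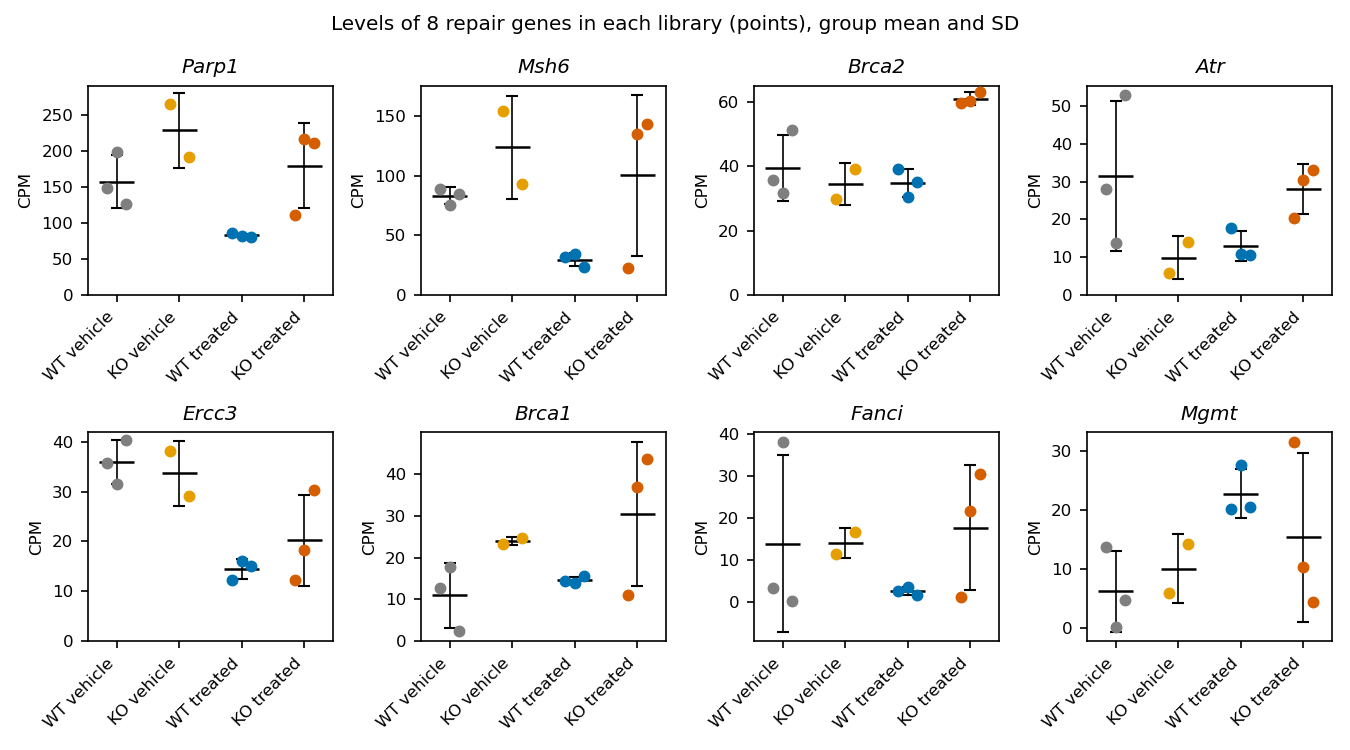
CPM of 8 repair genes in each library (points) with the group mean (line) and SD (bars), axes from 0 except for Fanci and Mgmt, where the SD bar reaches below 0. Brca2 shows 3 close KO treated points at 59.7 to 63.3 CPM, and the lowest KO treated point of Msh6, Parp1, Brca1 and Fanci and the highest of Mgmt are library 257.

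KO treated 257 differed from the other KO treated libraries in several of these genes, and it also had the highest share of reads outside genes of the 11 libraries (30.4%). Without it, edgeR called 1513 of 16341 genes (9.26%, with 4.38% higher) and 2 of the 45 (4.44%), a smaller share than over all genes. The 2 were Msh6 (log2 fold change 2.24, adjusted p = 0.00757) and Parp1 (1.37, adjusted p = 0.0111), and the median of the 45 was 0.75. With all 11 libraries, DESeq2's Wald test called 1 of the 45, Parp1 (1.09 ± 0.34, adjusted p = 0.0462), among 1.5% of all genes in either direction and 1.3% higher. Limma voom with quality weights, which gives less weight to deviating libraries, called 17 of the 45 (37.8%) among 25.8% of all genes. Of these 13 were higher (13.9% of all genes), and 4 were lower (11.9%): Apex1, Xpa, Ercc1 and Mgmt. Over the 15 alternatives tried, the adjusted p of Parp1 ran from 0.00183 to 1 and that of Msh6 from 0.00231 to 1.

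Transcript length moved with this comparison. The median transcript length was 3750 bases for the 45 genes and 2659 bases for all genes tested. Across the 45 genes, Spearman's rho between log2 fold change and length was 0.68, and across 16583 genes with a length it was 0.46; genes of the same libraries are not independent replicates. Of the 22 repair genes longer than 3750 bases, 21 were higher with the KO niche (median 1.05), and of all genes that long 79.5% were higher (median 0.69). Of the 23 at or under that length, 13 were higher (median 0.07), with 42.6% of all such genes (median -0.17). For single libraries, each gene's log2 level was taken minus its mean over the 11 libraries. Over all genes, the rho of this deviation with length was -0.30 to -0.40 in WT treated and -0.22 in KO treated 257. It was 0.35 and 0.36 in KO treated 263 and 276. With each library's length trend removed, 27 of the 45 were higher, with a median of 0.26 (0.03 over all genes), and Parp1 and Msh6 stood at 0.58 and 1.08. Other genes also moved toward 0: Brca2 from 0.81 to 0.26, Brca1 from 1.06 to 0.31, Atm from 1.03 to 0.55 and Atr from 1.11 to 0.53. By pathway, the median after removal was 0.54 for checkpoint, 0.26 for homologous recombination, 0.26 for mismatch repair, 0.58 for base excision repair and 0.83 for Fanconi genes. End joining stayed at -0.11, and nucleotide excision repair turned to -0.06 with 3 of 7 higher. With 257 left out as well, 26 were higher with a median of 0.22, and 0 of the 45 were called beside 22 genes in all. Brca2 then stood at 0.19, Atm at 0.40, base excision repair at a median of -0.04 and nucleotide excision repair at -0.36.

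**Figure D4:**
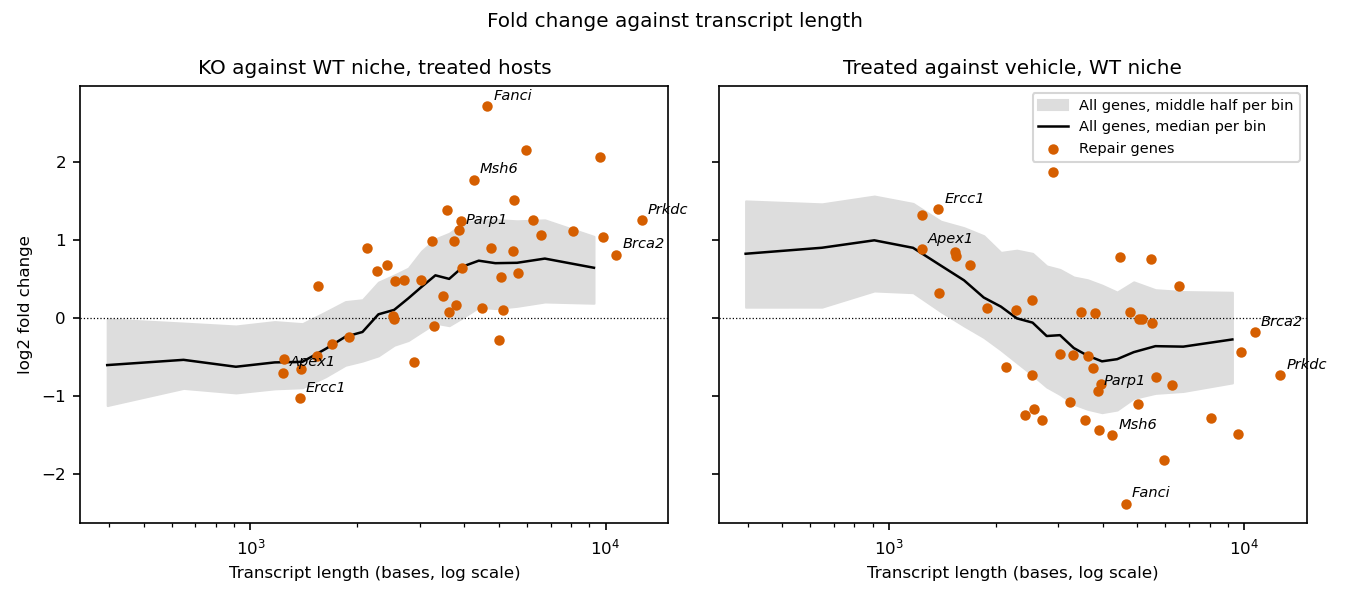
Log2 fold change (vertical) against transcript length in bases (horizontal, log scale) for the 45 repair genes (points), over the median and the interquartile band of all genes tested in bins of length (line and band). Points and line run the same way in each panel: upward to the right for KO against WT niche in treated hosts (rho 0.68 across the 45), and downward for treated against vehicle in the WT niche (rho -0.43).

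Other genes of the same pathways and of the cell cycle give the setting. Of 117 other repair genes tested, 74 were higher in KO treated than in WT treated (median 0.24) and 0 were called by edgeR. At an unadjusted p under 0.05 in edgeR, 13 were higher and 2 lower. The background for that rule was 7.13% of all genes higher and 10.6% in either direction. Ddb1, a subunit of the ultraviolet damage sensor, had the smallest p of the 117, with a log2 fold change of 2.45 ± 0.52 (edgeR adjusted p = 0.379). Of the 45, the 11 whose transcripts peak in S phase had 10 higher and a median of 0.89, and the other 34 had 24 higher and a median of 0.50. Most of the 11 but not most of the 34 are longer than 3750 bases, and 21 of the 22 repair genes that long were higher. The part of length in this split was not tested. The replication list had 18 of 30 higher (median 0.42), the G2/M list 17 of 25 (median 0.23) and the p53 target list 12 of 20 (median 0.43), each with 0 called. The 16 red-cell markers were all higher at an unadjusted p under 0.05 (median 6.76), and the 14 granulocyte markers had a median of -1.87. The part of cell cycle and of these other cells in the repair genes' values was not tested.

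**Figure D5:**
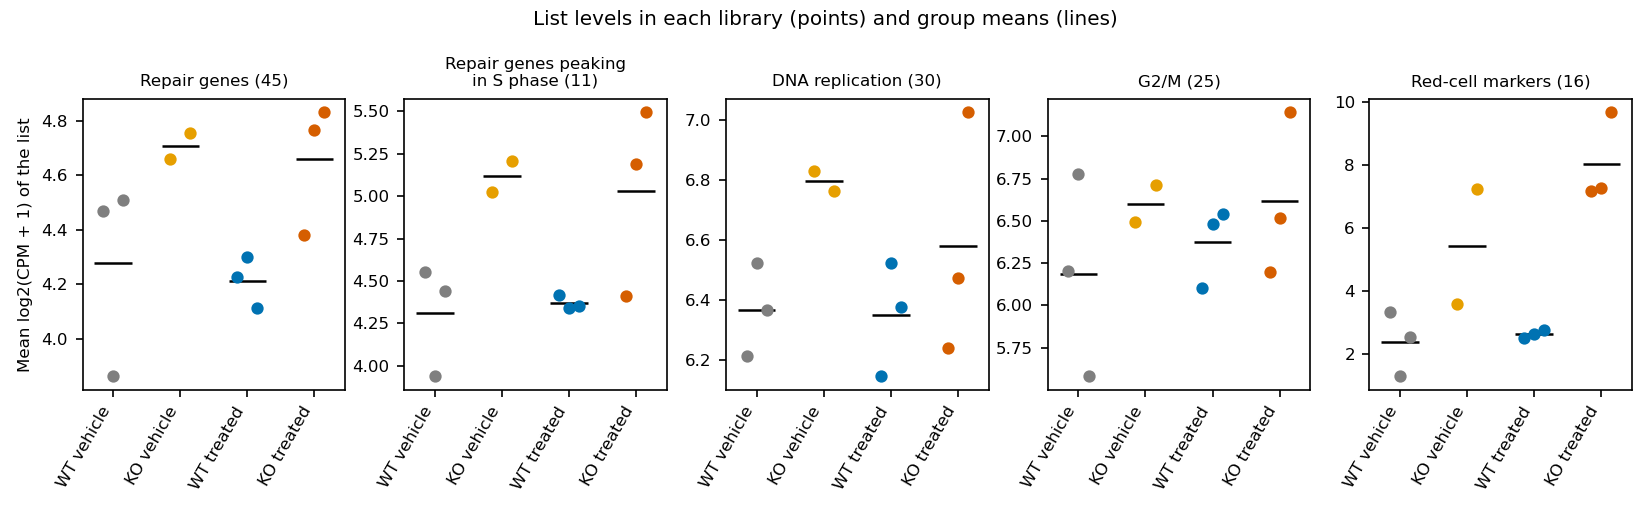
Mean log2(CPM + 1) of 5 gene lists in each library (points) with the group mean (line); vertical scales differ and do not start at 0. In KO treated, library 257 is lowest for the 45 repair genes, at 4.38 where the highest is 4.83, and WT treated lies between 4.11 and 4.30; the red-cell list separates KO treated from WT treated in all 6 libraries.

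In vehicle hosts the same question had no common direction. With the KO niche 25 of 45 genes were higher and 20 lower, with a median log2 fold change of 0.14 (48.7% higher and a median of 0 over all genes). The edgeR, DESeq2 and limma voom tests each called 0 of the 45 (0%, 1.35% and 0% of all genes), and 1 had an unadjusted p under 0.05 in edgeR (2.22%, with 6.78% of all genes in either direction and 1.98% lower). That was Atr, at 28, 13.6 and 53 CPM in WT vehicle and 5.77 and 13.9 CPM in KO vehicle, with a log2 fold change of -1.68 ± 0.65 (edgeR adjusted p = 0.729). Its groups overlapped by the WT vehicle library 253. The groups did not overlap for 11 genes higher with the KO niche (24.4%, with 13.2% of all genes) and for 1 lower, Xrcc1 (2.22%, with 7.47%). Brca1 was among the 11, at 12.6, 17.7 and 2.46 CPM in WT vehicle and 23.3 and 24.7 CPM in KO vehicle (log2 fold change 1.13 ± 0.73). Rpa1 was another, at 140, 66.0 and 99.9 CPM in WT vehicle and 172 and 162 CPM in KO vehicle.

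Msh6 also separated the vehicle groups, at 89.0, 75.2 and 85.1 CPM with the WT niche and 155 and 93.2 CPM with the KO niche. So did Fanca, at 16.3, 9.04 and 9.24 CPM and then 24.6 and 21.7 CPM, and Prkdc, at 9.82, 25 and 23.4 CPM and then 29.6 and 37.4 CPM. The edgeR adjusted p was 0.916 for Msh6, 0.761 for Fanca and 0.85 for Prkdc. Parp1 read 148, 197 and 125 CPM in WT vehicle and 265 and 192 CPM in KO vehicle, where the lower KO library lay just under the highest WT one. By pathway the medians were 1.01 for the Fanconi genes, 0.67 for mismatch repair and 0.18 for homologous recombination, and -0.32 for the checkpoint genes and -0.24 for end joining. With the length trend removed the median of the 45 was -0.24 (-0.34 over all genes). Homologous recombination then turned to -0.24 with 5 of 13 higher, and mismatch repair and the Fanconi genes stood at 0.24 and 0.58. Over both niche comparisons, which have no library in common, 21 genes had positive fold changes in both, 7 negative in both and 17 of opposite sign. The same counts were not made over all genes, so these do not show that the repair genes shared signs more than other genes.

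The drug comparison asks how the repair genes' levels differ after chemotherapy. In the WT niche 28 of 45 genes were lower in treated than in vehicle libraries and 17 higher, with a median log2 fold change of -0.45 against 0.09 over all genes. Over all genes, 52.6% were higher. Mitochondrial transcripts took 17.2% to 27.4% of the gene counts in WT vehicle and 2.86% to 15% in WT treated, and reads outside genes were 18.0% to 28.8% and 6.33% to 16.6% of all reads. Neither pair of ranges overlapped. The 10 B-cell markers summed to 52.3 to 60.5 CPM in WT vehicle and 75.3 to 159.8 CPM in WT treated, with 9 of 9 tested higher. Cd79b made up most of the WT vehicle sums, at 58.0, 52.0 and 51.2 CPM. It read 68.0, 91.2 and 79.2 CPM in WT treated. The 10 T and NK cell markers summed to 556 to 748 and 1019 to 1772 CPM, with 9 of 10 higher. Nkg7 made up most of these sums, at 449, 705 and 674 CPM in WT vehicle and 972, 1122 and 1698 CPM in WT treated. Lck read 106, 0.292 and 73.9 CPM in WT vehicle and 29.3, 63.2 and 64.8 CPM in WT treated, with overlap. EdgeR called 0 of either list, with 3 B-cell and 5 T and NK cell markers higher at an unadjusted p under 0.05. Of the T cell markers, Cd3e was at 0 in all WT vehicle libraries and at most 0.124 CPM in WT treated. Cd8a read 0, 0 and 0.123 CPM in WT vehicle and 10.5, 3.30 and 3.61 CPM in WT treated. Cd3d read 0.194, 0 and 0.123 CPM in WT vehicle and 1.27, 0.57 and 0.516 CPM in WT treated. The part of these shares and markers in the repair genes' values was not tested. None of the 45 was called by edgeR or limma voom (0% of all genes by each), and 1 was called by DESeq2 (2.22%, with 6.65% of all genes in either direction and 3.58% lower). The WT treated libraries that enter here are the same that the niche comparison in treated hosts used, so the values of the 2 comparisons are not independent. At an unadjusted p under 0.05 in edgeR there were 10 of 45 (22.2%, with 18.2% of all genes, 10.1% higher and 8.11% lower). The 8 lower ones were Atr, Xrcc3, Xrcc5, Xrcc1, Lig3, Parp1, Msh6 and Ercc3, and the 2 higher ones were Xpa and Ercc1. The groups did not overlap for 5 lower genes (11.1%, with 10.1% of all genes) and 5 higher ones (11.1%, with 17.5%), shares near or below those of all genes.

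Ercc3 was the gene DESeq2 called, with a log2 fold change of -1.33 ± 0.39 (adjusted p = 0.0166). It read 35.7, 31.6 and 40.4 CPM in WT vehicle against 12.3, 16.1 and 15 CPM in WT treated, and edgeR gave -1.31 ± 0.41 (adjusted p = 0.177). Every treated value was below every vehicle value, and edgeR and DESeq2 differed over the call and not over its size. Msh6 went from 83.1 CPM ± 7.11 (SD, n = 3) in WT vehicle to 29.5 CPM ± 5.58 (SD, n = 3) in WT treated, a log2 fold change of -1.50 ± 0.54 (edgeR adjusted p = 0.204), without overlap. Parp1 went from 157 CPM ± 36.8 (SD, n = 3) to 82.2 CPM ± 2.55 (SD, n = 3), a log2 fold change of -0.93 ± 0.32 (edgeR adjusted p = 0.19), also without overlap. The scaffold gene Xrcc1, at -0.73 ± 0.27, and Xrcc5, at -1.16 ± 0.52, were the other lower genes without overlap (edgeR adjusted p = 0.21 and 0.269).

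The higher genes without overlap were Xrcc4, Apex1, Xpa, Ercc1 and Mgmt. Ercc1 and Xpa, which meet in the incision step of nucleotide excision repair, had log2 fold changes of 1.39 ± 0.56 and 1.32 ± 0.55 (edgeR adjusted p = 0.232 and 0.246). Mgmt read 13.6, 0.233 and 4.80 CPM in WT vehicle against the 20.2 CPM or more of every WT treated library, a log2 fold change of 1.87 ± 1.07 (edgeR adjusted p = 0.372). Fanci had the lowest value, -2.37 ± 1.34, at 3.49, 38.0 and 0.369 CPM in WT vehicle, where 1 library alone lay above the treated ones by a wide margin. Chek1 was at 26.8, 0.0583 and 38.7 CPM in WT vehicle, so library 253 held almost none of it. H2afx read 231, 413 and 132 CPM, Xpc read 116, 160 and 121 CPM and Xrcc6 read 127, 91.3 and 156 CPM in WT vehicle, and all 3 genes overlapped with WT treated. Brca2 (35.8, 31.8 and 51.2 CPM) and Atm (22.2, 9.74 and 29.1 CPM) overlapped as well, at -0.18 ± 0.30 and -0.44 ± 0.50.

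The direction of the 45 as a group in this comparison rested on 1 library. Without WT vehicle 265, the shallowest library, 23 were higher and 22 lower, and the median was 0.01 (0.21 over all genes). With upper-quartile scaling 21 were higher and 24 lower, with a median of -0.24, while the median of all genes moved from 0.09 to 0.32. By pathway the medians were -0.84 for mismatch repair, -0.73 for end joining, -0.62 for base excision repair and -0.49 for nucleotide excision repair, and -0.06 to -0.19 for Fanconi, homologous recombination and checkpoint genes. The sign followed length here too: of the 22 longer genes 5 were higher (34.9% of all such genes), and of the 23 shorter ones 12 (60.4%). With the length trend removed, 13 of the 45 were higher and 32 lower, with a median of -0.51 (-0.30 over all genes). The checkpoint median was then -0.58 and the Fanconi median 0.04. Of the 117 other repair genes 59 were higher and 58 lower (median 0.03), with 0 called by edgeR. At an unadjusted p under 0.05 in edgeR, 13 were higher and 10 lower, with 10.1% of all genes higher and 8.11% lower.

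In the KO niche 26 of 45 genes were lower in treated than in vehicle libraries, with a median of -0.12 (0.12 over all genes, of which 56.1% were higher). The 3 tests each called 0 of them (0% of all genes by edgeR, 0.138% by DESeq2 and 0% by voom), and 2 had an unadjusted p under 0.05 in edgeR (4.44%, with 3.68% of all genes in either direction and 2.7% higher). These were Atr, at 5.77 and 13.9 CPM in KO vehicle and 20.5, 30.4 and 33.0 CPM in KO treated (log2 fold change 1.51 ± 0.65, edgeR adjusted p = 1), and Brca2, at 29.9 and 39.1 CPM in KO vehicle (0.83 ± 0.35, edgeR adjusted p = 1). Both were above vehicle in each treated library, as were Rad50, a subunit of the complex that holds broken ends, and Atm, at 16.2 and 15.3 CPM in KO vehicle. These 4 were 8.89% of the 45, with 12.3% of all genes. Another 4 (8.89%, with 10.1%) were below vehicle in each treated library: Lig4, Xrcc1, Msh3 and Ercc4. Of the other genes, Chek1 (33.9 and 39.4 CPM), H2afx (197 and 232), Xrcc6 (92.2 and 97.9), Xpc (121 and 80.7), Ercc3 (38.2 and 29.1), Fanci (11.6 and 16.7) and Mgmt (5.91 and 14.2) had KO vehicle levels within or overlapping the range of KO treated.

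The interaction, which tests whether the niche difference depends on treatment, was positive for 26 of 45 genes, with a median of 0.35 (0.11 over all genes, of which 53.6% were positive). The 3 tests called 0 of the 45 (0%, 0.349% and 0% of all genes), and 2 had an unadjusted p under 0.05 in edgeR (4.44%, with 6.31% of all genes in either direction and 3.04% positive). Atr had the largest value of the 45, 2.79 ± 0.86 (edgeR adjusted p = 0.767): in vehicle hosts the KO niche went with less Atr, and in treated hosts with more. Brca2 was the other, at 1.01 ± 0.46 (edgeR adjusted p = 0.767). For Parp1 and Msh6, the values were 0.58 ± 0.48 and 1.19 ± 0.81, so a difference between their niche effects in treated and vehicle hosts was not detectable with these libraries.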

How the data were processed

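RNA-seq of 11 libraries of sorted mouse cells was analysed. Per the submitters' processing notes, reads were handled with STAR 2.7.9a, Trim Galore 0.6.7 and HTSeq (given there as version 0.6.7) on build GRCm39, and per the labels' protocols the kits were SMARTer Ultra Low Input and Nextera XT. The deposited values are raw read counts per Ensembl gene, with no normalization by the authors; annotation release and strand setting are not given in the sources used here. The 5 HTSeq summary lines were left out (reads outside genes 5.98% to 30.4%, ambiguous 2.34% to 6.31%, not unique 11.6% to 30.0% of all reads). Symbols, transcript lengths (longest coding transcript) and exon overlaps come from GENCODE M21, on another build, which named 52093 of the 53700 genes, so no gene coordinates are given.

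In R 4.3.3, edgeR 4.0.16 kept 16639 genes (filterByExpr), scaled by TMM and fitted the 4 groups in 1 robust quasi-likelihood model with no block (biological coefficient of variation 0.783). Calls needed an adjusted p (Benjamini-Hochberg, over all genes) under 0.05 in 1 of 5 contrasts. CPM uses TMM-scaled library sizes, and SE follows from the F statistic. Alternatives were DESeq2 size factors, upper-quartile scaling, no filter, a mean CPM of 10, DESeq2 1.42.0, limma voom 3.58.1, only the groups compared, removal of each library's length trend (lowess, span 0.3), WT vehicle 253 and 265 left out together, and each library left out. The 3 tests were tested on simulated counts for KO against WT in treated hosts, where DESeq2 made more false calls than edgeR or voom. The counts were drawn for each gene on its own, without a length trend or a deviating library. False calls on libraries with those features, as here, were therefore not measured for any of the tests.

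The genes and lists were chosen with earlier results of these data known. Values in every library are given for 16 genes: any called by edgeR with all libraries (there was none), the one with the smallest p and the most abundant per kb in each pathway, and Atm, Atr, Chek1, Brca1, Brca2, Parp1, Msh6 and Mgmt; Trp53bp1 was added for its size after its values were seen.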

Additional observations from a re-analysis of the deposited data

How the results depend on the processing

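Counts of called genes depended on the test and on single libraries. Where edgeR called 0, dropping the low-count filter gave 43 genes for KO against WT in treated hosts, 11 for KO against WT in vehicle hosts and 215 for treated against vehicle in the WT niche. DESeq2 gave 249, 224 and 1106 in the same order, 23 for treatment in the KO niche and 58 for the interaction, with 1 repair gene in each of the first and the third (Parp1 and Ercc3). Limma voom gave 4301 genes and 17 repair genes for KO against WT in treated hosts. Leaving out each library in turn gave 0 to 1513 genes and 0 to 2 repair genes there (1513 and 2 without KO treated 257), 0 to 85 in vehicle hosts, 0 to 190 for treatment in the WT niche and 0 to 1 for the interaction, the highest of the last 3 without WT vehicle 240. The length trend removed and KO treated 257 left out together, an alternative chosen after seeing the data, gave 22 genes and 0 repair genes.

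The median of the 45 for KO against WT in treated hosts stayed above 0 in all 15 alternatives (0.22 to 0.75): it was 0.26 with the length trend removed, 0.22 with 257 left out as well, and 0.43 to 0.75 with each library left out. In vehicle hosts it was -0.24 with the length trend removed and 0.05 to 0.22 with each library left out. For treatment in the WT niche it was -0.14 with voom, -0.51 with the length trend removed and -0.50 to 0.0083 with each library left out.

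Of 498 values of named genes under alternatives, 14 gained a call and 20 changed sign, all of the latter in 5 genes and in the niche comparison of treated hosts. With 0 calls in the main test, no call could be lost. Upper-quartile scaling gave Chek1 -0.065, Xpc -0.072 and Fanca -0.087. The length trend removed gave Chek1 -0.36, Rpa1 -0.18, Xpc -0.36 and Fanca -0.57, and with 257 left out as well Chek1 -0.18, Xpc -0.72 and Fanca -0.47. With each library left out, Chek1 ran from -0.24 to 0.48, Xpc from -0.14 to 0.47, Fanca from -0.14 to 0.65 and Xrcc6 from -0.28 to 0.14. The cause was not tested. No paired analysis was possible because the groups share no replicate numbers. In WT vehicle 253, 7 of the 45 had under 20 counts, so their levels there are imprecise, and with KO vehicle reduced to 1 library, its spread was taken from the other groups.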
